A study of Oryctolagus cuniculus with 12 samples.

Results

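The genes described here carry out DNA replication and cell division. A list of 45 gene symbols was looked up in the expression table of rabbit ear skin. Of these, 32 were found by symbol, 8 of them replication genes, 1 a regulator of the G1/S transition and 23 mitosis genes. Another 9 had no symbol in the table and were found by their protein description, which was done after the table had been seen. These 9 are MKI67, CCNA2, CCNB1, CCNE1, BIRC5, CENPF, NUSAP1, ASPM and CDC45. They are kept apart in every count. The remaining 4, MCM6, E2F1, UHRF1 and CDC20, are not analysed here. The table lists 29587 genes, of which the 13287 with a mean of at least 1 FPKM (fragments per kilobase of gene, scaled to the depth of the library) over all 12 samples were tested. Of the members found by symbol, 31 were tested. CENPE, a kinetochore motor, ran from 0.305 to 1.63 FPKM, had a mean below the limit and was not tested.

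Bulk RNA was sequenced from 12 samples in 4 groups of 3 wild-type rabbits each. The animals were female and 10 to 12 weeks old. NS stands for normal skin of the ear and HS for hypertrophic scar left untreated, grown over 4 wounds of 7 mm on the inner face of each ear whose new tissue was cut away again during the first 2 weeks. The drug-loaded MNs group received 1 microneedle patch per scar, loaded with a 5-fluorouracil prodrug, and the 5-Fu injection group received 120 μg of 5-fluorouracil in 0.1 mL per scar, both on days 22, 29 and 36 after wounding. Per the study's methods, the full thickness of the tissue was taken 1 week after the last dose, so earlier effects of treatment were not sampled. NS skin was not wounded, so wounding and scar cannot be told apart in any comparison with NS. Patches without drug are not analysed here, so an effect of the patch itself cannot be separated from that of its drug.

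A dividing cell first loads the MCM helicase onto its replication origins, with the help of CDC6, and then copies its DNA with the helicase cofactors CDC45 and GINS and the sliding clamp PCNA. Cyclin E and its kinase start this phase. Later the transcription factors MYBL2 and FOXM1 switch on the genes of G2 and mitosis, which include the B cyclins, the Aurora and Polo kinases, the spindle checkpoint, the kinetochore and the motors that separate the cells. In skin, basal keratinocytes and the matrix of growing hair follicles divide throughout life, whereas fibroblasts and endothelial cells divide mainly after wounding. PCNA serves in DNA repair as well.

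The sum of the fibroblast markers set the scar samples apart from normal skin. The summed FPKM of 8 markers was 2679 to 3816 in NS, 37980 to 49557 in HS, 19287 to 27619 with drug-loaded MNs and 5399 to 27108 with 5-Fu injection. COL1A1, COL1A2, COL3A1 and LUM made up most of it, and not every marker separated the groups. THY1 was at 129 to 213 FPKM in NS and 190 to 587 in HS. After 5-Fu injection DCN was at 486 to 1163 FPKM, against 463 to 618 in NS, and FBLN1 at 38.4 to 92.6, against 78.8 to 158. Of the 8 markers, 5 were called higher in HS than in NS (COL1A1, COL1A2, COL3A1, LUM and DCN), beside 3.53% of all genes tested. The 7 basal keratinocyte markers found summed to 1008 to 1266 in NS and 457 to 516 in HS. Of these 7, 3 were called lower (KRT5, KRT15 and COL17A1), beside 1.48% of all genes tested. CDH3 alone had a positive log2 fold change, at 11.1, 13.2 and 6.13 FPKM in NS and 18.4, 12.3 and 16.0 in HS. Reads assigned to genes numbered 10521472 to 14043667 per sample, and no 2 samples of a group were alike within sampling noise.

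Members differed widely in level, and replication genes were mostly the more abundant, on the FPKM scale, which corrects for gene length. PCNA had the highest mean over the 12 samples, 59.1 FPKM, followed by MCM7 with 26.1 and by CENPA, the centromeric histone, with 18.8. The median of the member means was 11.6 FPKM for the 8 replication genes (range 1.68 to 59.1) and 3.97 FPKM for the 22 mitosis genes (range 1.36 to 18.8). Single samples held 11 to 1138 reads per replication gene and 16 to 560 per mitosis gene, so the low members were measured with the larger counting error.

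The rise in HS against NS was found among the mitosis genes, while the replication genes centred on 0. A gene was called when limma gave a Benjamini-Hochberg adjusted p under 0.05 over all genes tested and a log2 fold change beyond 1, on the log2(FPKM + 1) scale. By this rule 4 of 31 members rose in HS against NS, MYBL2, CCNB2, PRC1 and TOP2A, and 0 fell, beside 3.53% of all genes tested that were called higher. All 4 are mitosis genes, in classes set by the role of the protein and not by when its RNA is made. The 22 mitosis members all had a positive log2 fold change, with a median of 0.76 and a range of 0.37 to 1.46, against a median of -0.01 over all genes tested. In bulk tissue, more dividing cells and more RNA per dividing cell cannot be told apart.

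MYBL2, the B-Myb transcription factor of the G2 genes, lies on an unplaced scaffold (ENSOCUG00000005775). It was at 0.940, 2.98 and 1.15 FPKM in NS and at 5.97, 5.26 and 6.84 in HS. After drug-loaded MNs it was at 3.54, 3.41 and 4.33 FPKM, and after 5-Fu injection at 3.57, 5.08 and 4.08. All HS samples lay above all others, and all treated samples lay between NS and HS. HS exceeded NS by 1.46 on the log2(FPKM + 1) scale (SE 0.26, 95% interval 0.89 to 2.02, limma adjusted p = 0.00762), and the mean FPKM was 3.57 times higher.

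CCNB2, cyclin B2, which activates CDK1 at the entry into mitosis, lies on chromosome 17 from 13262154 to 13306865 in the coordinates of the table (ENSOCUG00000001652, build not given in the sources used here). It was at 4.81, 6.40 and 6.18 FPKM in NS and at 13.6, 20.2 and 17.7 in HS. After drug-loaded MNs it was at 14.2, 11.8 and 24.7 FPKM, and after 5-Fu injection at 7.73, 21.1 and 19.0. Every scar sample, treated or not, was above every NS sample. The log2 fold change of HS over NS was 1.41 (SE 0.35, limma adjusted p = 0.0340).

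PRC1, which bundles microtubules in the midzone where the cell divides, is on an unplaced scaffold (ENSOCUG00000028094). It was at 3.97, 5.51 and 4.91 FPKM in NS and at 10.5, 13.2 and 14.9 in HS. After drug-loaded MNs it was at 11.4, 7.63 and 14.1 FPKM, and after 5-Fu injection at 4.70, 13.6 and 10.1. NS and HS did not overlap, while 5-Fu injection replicate 1 lay inside the NS range. The log2 fold change of HS over NS was 1.25 (SE 0.32, limma adjusted p = 0.0382).

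TOP2A, the topoisomerase that untangles chromosomes before they separate, lies on chromosome 19 from 41535077 to 41568462 (ENSOCUG00000002814). It was at 2.14, 4.07 and 1.75 FPKM in NS and at 5.27, 6.17 and 8.23 in HS. After drug-loaded MNs it was at 5.76, 4.41 and 7.08 FPKM, and after 5-Fu injection at 2.91, 6.18 and 3.51. Again NS and HS did not overlap, and 2 of the 5-Fu injection samples lay below the highest NS sample. The log2 fold change was 1.08 (SE 0.29), and its limma adjusted p of 0.0488 was close to the threshold.

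**Figure D1:**
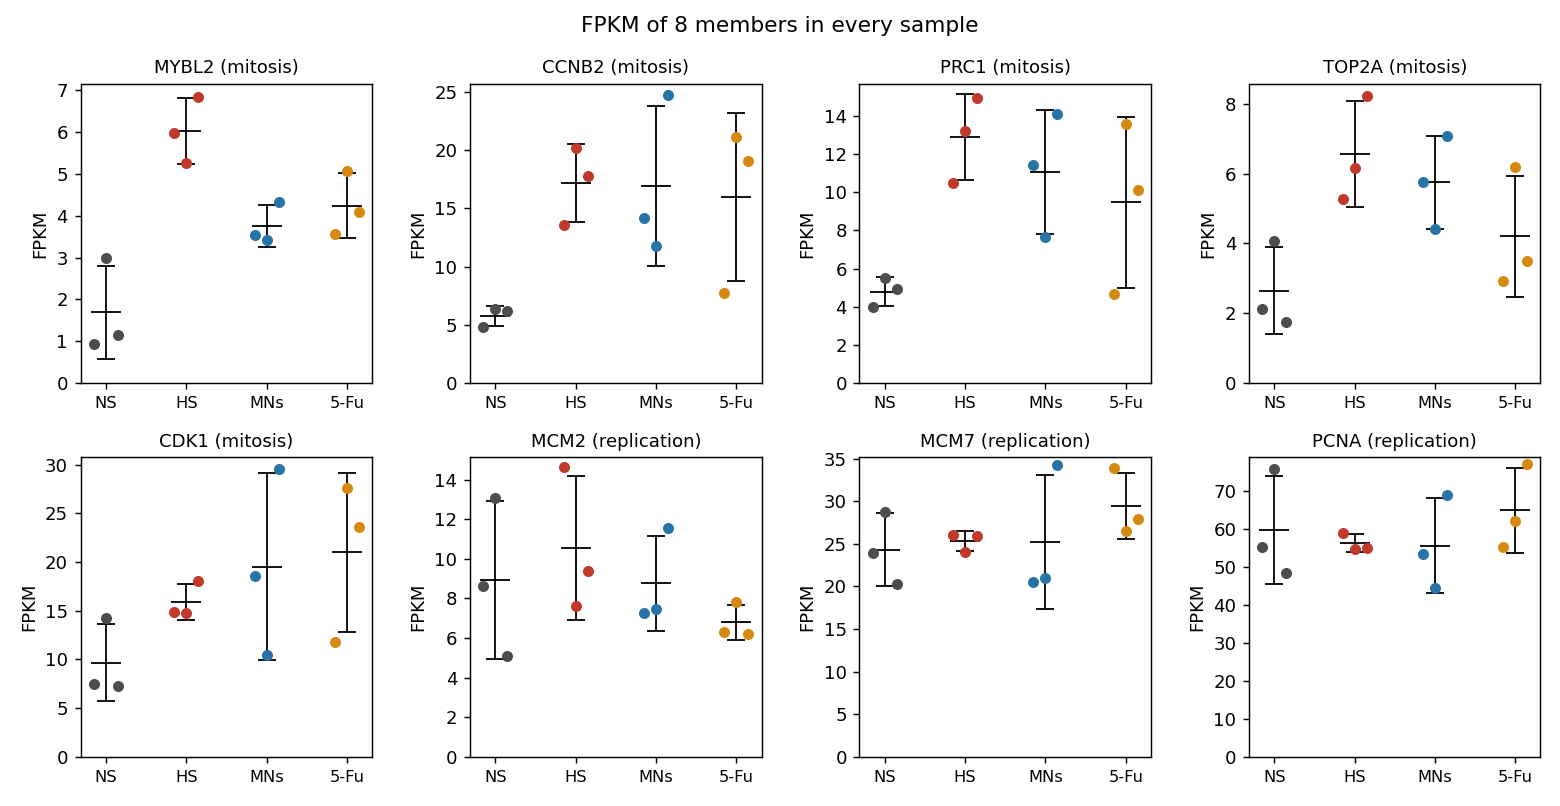
FPKM (vertical axis, from 0) of 8 members in each sample of the 4 groups (horizontal axis; MNs, drug-loaded MNs; 5-Fu, 5-Fu injection), points in replicate order, with the mean as a bar and 1 SD (n = 3) as the error bar. HS lies above NS with no overlap for MYBL2, CCNB2, PRC1, TOP2A and CDK1, whereas MCM2, MCM7 and PCNA overlap.

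These calls rest on few samples. Without any single NS or HS sample, CCNB2 and PRC1 missed the threshold, with limma adjusted p of 0.0632 to 0.122 and 0.0703 to 0.134. TOP2A missed it without any of these samples other than NS replicate 2, without which it was called (limma adjusted p = 0.0344). The spread was estimated over all 4 groups, and PRC1 also missed the threshold without drug-loaded MNs replicate 1 (limma adjusted p = 0.0535) and TOP2A without any single drug-loaded MNs sample or 5-Fu injection replicate 3 (limma adjusted p of 0.0571 to 0.0671). MYBL2 was called each time, with limma adjusted p of 0.0053 to 0.0367.

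The best known markers of dividing cells had the same direction without passing the test. MKI67, which encodes the Ki-67 protein of cycling cells, was at 3.38, 5.28 and 2.74 FPKM in NS and at 5.65, 9.18 and 8.75 in HS. It was at 7.96, 5.34 and 11.5 FPKM after drug-loaded MNs and at 4.17, 9.40 and 7.05 after 5-Fu injection. NS and HS did not overlap, though NS replicate 2 came close to HS replicate 1. The log2 fold change of HS over NS was 0.89 (95% interval 0.18 to 1.61, limma adjusted p = 0.125).

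CDK1, the kinase that drives mitosis, was at 7.44, 14.2 and 7.32 FPKM in NS and at 14.9, 14.7 and 18.0 in HS. The treated samples spread further in both directions, with 18.6, 10.4 and 29.5 FPKM after drug-loaded MNs and 11.8, 27.6 and 23.6 after 5-Fu injection. HS exceeded NS in every sample, by a log2 fold change of 0.72 with a 95% interval of -0.13 to 1.57 (limma adjusted p = 0.297). CCNB1, its cyclin partner, was at 3.64, 7.34 and 4.69 FPKM in NS, at 10.1, 11.0 and 9.52 in HS, at 11.7, 7.47 and 14.4 after drug-loaded MNs and at 5.33, 15.9 and 14.6 after 5-Fu injection. Its HS and NS samples did not overlap, and the log2 fold change was 0.89 (limma adjusted p = 0.170).

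By role, the mitosis members shared the direction. The 4 cytokinesis genes KIF20A, KIF23, PRC1 and ANLN had a median log2 fold change of 0.88 in HS against NS. The 3 kinetochore genes CENPA, NDC80 and NUF2 had a median of 0.85, and the 3 spindle genes KIF11, KIF2C and TPX2 a median of 0.80. The medians were lower for the 3 spindle checkpoint genes BUB1, BUB1B and TTK, 0.56, and the 4 kinases PLK1, AURKA, AURKB and MELK, 0.55. None of these 17 genes other than PRC1 was called. The lowest values of the class were 0.37 for MELK, a kinase of proliferating cells, and 0.40 for ANLN, the actin binder of the cleavage furrow. The 1 added to each FPKM shrinks the values of low members, so this order depends on the level. The mean FPKM of BUB1, BUB1B and TTK in HS was 1.71, 1.98 and 2.09 times that in NS. For PLK1, AURKA, AURKB and MELK it was 1.65, 1.47, 1.94 and 1.44 times, for ANLN 1.58 and for TPX2 1.44. In HS against NS, 15 of 22 mitosis members had an unadjusted limma p under 0.05 with the higher level in HS, beside 13.2% of all genes tested, and in 19 of 22 the lowest HS sample exceeded the highest NS sample, beside 18.0%. Including the members found by description, all 29 mitosis genes tested were positive, 25 did not overlap and the same 4 were called.

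The 8 replication members centred on 0. Their log2 fold change in HS against NS had a median of 0.03 and ran from -0.17 for GINS2, a subunit of the replicative helicase complex, to 0.25 for MCM2. Of these 8 genes, 4 were positive, 0 had an unadjusted limma p under 0.05 and 0 separated the groups. The lowest limma adjusted p among them was 0.668. The 95% interval lay within 1 log2 unit of 0 for 7 of 8, CDC6 being the exception with -0.72 to 1.11, so changes as large as those of the called mitosis genes lay outside the intervals of most replication genes. The intervals reached 0.41 to 0.92 to either side of the estimates. CDC45, the replication gene found by description, lay above all 8, with a log2 fold change of 0.58. Its 95% interval was -0.40 to 1.56 (limma adjusted p = 0.474), at 2 to 52 reads per sample, and its groups overlapped. Including it, the replication median was 0.07.

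MCM2, a subunit of the helicase, was at 8.65, 13.1 and 5.11 FPKM in NS and at 14.6, 7.61 and 9.38 in HS, with 7.28, 7.47 and 11.5 after drug-loaded MNs and 6.32, 7.81 and 6.22 after 5-Fu injection. The NS samples spanned most of the range of the other groups. PCNA was at 55.1, 75.6 and 48.3 FPKM in NS and at 58.9, 54.6 and 55.0 in HS, with 53.3, 44.4 and 69.0 after drug-loaded MNs and 55.3, 62.1 and 77.0 after 5-Fu injection. No group stood apart from another for either gene. MCM4 had a log2 fold change of -0.00 with a 95% interval of -0.41 to 0.41, the narrowest of the class. CCNE2, a cyclin that starts replication, was at 0.812, 1.56 and 0.578 FPKM in NS and at 2.44, 1.53 and 1.17 in HS, with overlap and a log2 fold change of 0.45 (limma adjusted p = 0.315). CCNE1, the other E cyclin, found by description, had a log2 fold change of 0.50 (limma adjusted p = 0.257), and its HS and NS samples did not overlap.

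**Figure D2:**
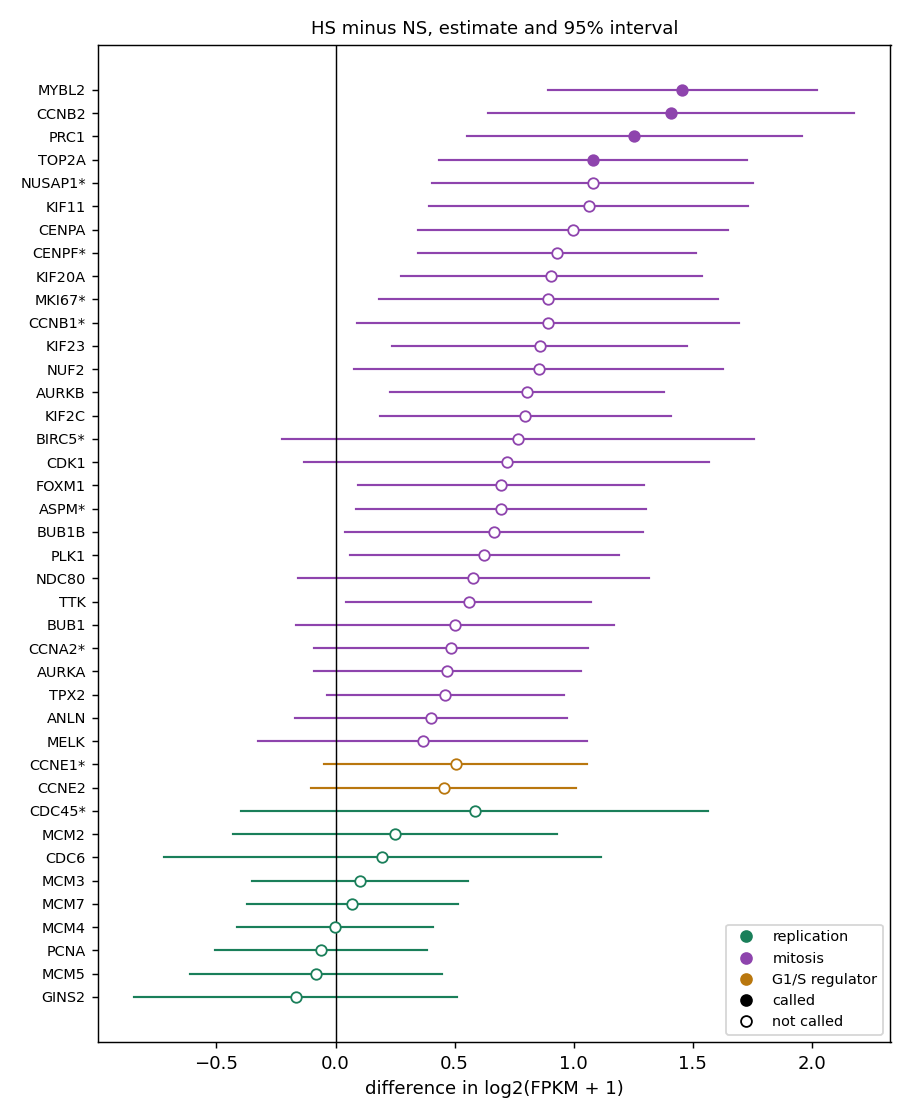
Difference between HS and NS in log2(FPKM + 1) (horizontal axis) for the 40 members tested (vertical axis), with 95% intervals from limma. Filled points were called, asterisks mark genes found by description and colours mark the class. The mitosis genes all lie to the right of 0 and the replication genes lie around it.

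Scaling bears on the level of both classes. The FPKM values had been scaled between libraries before deposit, and rescaling them to the total of reads moved the median of all genes to -0.33 in HS against NS. The replication median then became -0.30 and the mitosis median 0.47, with 0 of 8 and 22 of 22 members above 0. Relative to the median of all genes in this comparison, the replication members were near 0 and the mitosis members higher under both scalings. In the other comparisons with NS the same step moved the median of all genes to -0.19, and in drug-loaded MNs and 5-Fu injection against HS to 0.11 and 0.13. The direction of the replication genes in HS against NS also depended on single NS samples, with 8 of 8 above 0 without NS replicate 2 and 0 of 8 without NS replicate 3.

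No member differed detectably between drug-loaded MNs and HS. In this comparison 0 of 31 members were called in either direction, where 0.00753% of all genes tested were called higher and 0 lower. An unadjusted limma p under 0.05 was reached by 0 members, beside 4.78% of all genes higher and 4.12% lower. The median log2 fold change was -0.02 for the mitosis and -0.04 for the replication members, against -0.02 over all genes tested. The mitosis values ran from -0.56 for MYBL2 and -0.23 for PRC1 to 0.17 for CDK1 and 0.22 for TTK, a checkpoint kinase. The replication values ran from -0.22 for MCM2 and -0.10 for MCM3 to 0.06 for MCM5 and 0.40 for GINS2. MYBL2 was the single member with every treated sample below every HS sample, beside 10.3% of all genes, and its adjusted p was 0.565 in limma. The 95% intervals of 20 of 22 mitosis genes lay within 1 log2 unit of 0. These intervals reached 0.50 to 0.85 to either side of the estimates. With 1 sample left out at a time the mitosis median ran from -0.19 to 0.23, and the count above 0 went from 10 of 22 to 19 without drug-loaded MNs replicate 2 and to 1 without replicate 3.

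In 5-Fu injection against HS, 0 of 31 members were called, beside 0.512% of all genes called higher and 1.78% called lower. The mitosis median was -0.14, with 16 of 22 members negative, and the replication median was 0.05, against 0.02 over all genes. With 1 sample left out at a time the mitosis median ran from -0.30 to 0.10. Without 5-Fu injection replicate 1, 12 of 22 mitosis members were above 0, and without replicate 2 only 2 were. The lowest mitosis values were those of TOP2A, -0.57 (95% interval -1.22 to 0.08), and PRC1, -0.50. The highest were those of AURKA, the kinase of the spindle poles, 0.34, and CDK1, 0.31. Among replication genes the lowest were MCM2, -0.53, and MCM4, -0.33, and the highest MCM7, 0.20, and GINS2, 0.35.

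CCNE2 was the single member of this comparison with an unadjusted limma p under 0.05 (log2 fold change -0.63, limma adjusted p = 0.149), at 0.965, 0.733 and 0.499 FPKM after 5-Fu injection, beside 14.4% of all genes that were lower by this rule. All 3 of these samples were below all HS samples, as were those of MYBL2, beside 16.4% of all genes. MCM7, another helicase subunit, was above HS in every sample, at 33.8, 26.5 and 27.9 FPKM against 26.1, 24.0 and 25.9, beside 13.9% of all genes. Its log2 fold change was 0.20 (limma adjusted p = 0.557).

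**Figure D3:**
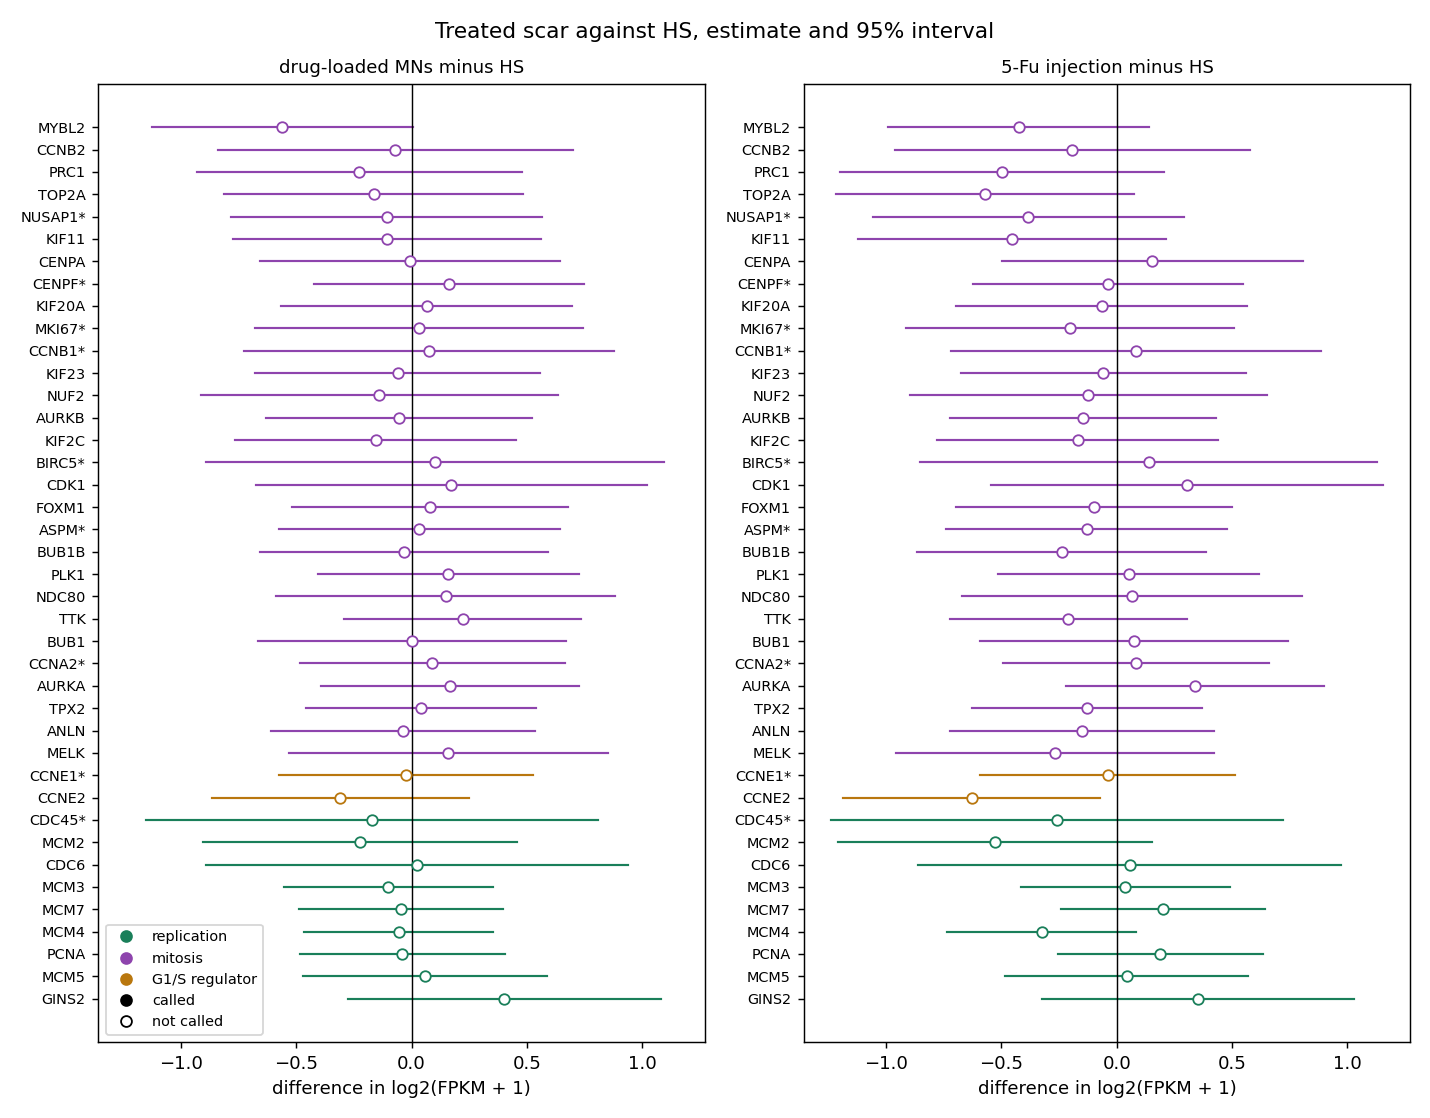
Differences of drug-loaded MNs from HS (left) and of 5-Fu injection from HS (right) in log2(FPKM + 1) (horizontal axes) for the 40 members tested (vertical axes), with 95% intervals from limma, in the gene order of the HS and NS comparison; asterisks mark genes found by description. Both panels share the HS samples. No point is filled, since 0 members were called.

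Between the treatments 0 members were called, and 0 of the 13287 genes tested were called in either direction in limma. Drug-loaded MNs against 5-Fu injection gave 0 members with an unadjusted limma p under 0.05, beside 8.15% of all genes higher and 6.97% lower. The medians were 0.11 for the mitosis and -0.01 for the replication members. With 1 sample left out at a time the mitosis median ran from -0.12 to 0.33, and 15 of 22 mitosis members above 0 became 7 without 5-Fu injection replicate 1 and 6 without drug-loaded MNs replicate 3. The highest mitosis values were 0.43 for both TTK and MELK, and the lowest -0.17 for AURKA and -0.16 for CENPA. MCM4 was the single member whose groups did not overlap, higher after drug-loaded MNs, beside 8.64% of all genes (log2 fold change 0.27, limma adjusted p = 0.503). The replication values otherwise ran from -0.25 for MCM7 and -0.23 for PCNA to 0.30 for MCM2.

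Set against NS, the mitosis members of both treated groups had positive log2 fold changes, and no member passed the test. These comparisons use the same NS samples as that of HS, and their values are therefore not independent of it. In drug-loaded MNs against NS, 0 members were called, beside 0.790% of all genes called higher, and the 22 mitosis members were all positive with a median of 0.78. CCNB2 was highest with 1.34 (limma adjusted p = 0.124), followed by PRC1 with 1.03, and ANLN, 0.36, and TPX2, 0.50, were lowest. Of the 22, 17 had an unadjusted limma p under 0.05, beside 7.68% of all genes, and 13 did not overlap with NS, beside 11.5%. The replication median was 0.02, from -0.10 for PCNA and -0.06 for MCM4 to 0.22 for CDC6 and 0.24 for GINS2.

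In 5-Fu injection against NS, 0 members were called, beside 0.00753% of all genes called higher. The 22 mitosis members were again all positive, with a median of 0.65, and 11 had an unadjusted limma p under 0.05, beside 7.93%, while 7 did not overlap with NS, beside 9.60%. CCNB2 with 1.22 and CENPA with 1.15 were highest, and MELK with 0.10 and ANLN with 0.25 lowest. The replication median was 0.14, from -0.33 for MCM4 and -0.28 for MCM2 to 0.25 for CDC6 and 0.27 for MCM7. The count of mitosis members above 0 was 21 of 22 after rescaling to the total of reads, and without NS replicate 1, NS replicate 3 or 5-Fu injection replicate 2. In these 2 comparisons and the 3 among scar groups, voom on the reads called 0 members as well. Of all genes, it called 88 higher and 10 lower in drug-loaded MNs against NS and 70 higher and 293 lower in 5-Fu injection against HS. It called 1 higher and 0 lower in 5-Fu injection against NS, and 0 in drug-loaded MNs against HS or against 5-Fu injection.

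The sum of the 22 mitosis members was 61.4 to 93.0 FPKM in NS, 129 to 163 in HS, 103 to 209 after drug-loaded MNs and 94.2 to 195 upon 5-Fu injection. By this sum NS lay below all scar samples, but only narrowly below 5-Fu injection replicate 1. The median of the members, each as log2(FPKM + 1) centred on its mean over the 12 samples, did not separate them. It was -0.32 in 5-Fu injection replicate 1 and -0.20 in NS replicate 2. The sum of the 8 replication members was 106 to 185 FPKM in NS, 128 to 153 in HS, 119 to 180 after drug-loaded MNs and 141 to 163 upon 5-Fu injection, so the ranges of all groups overlapped.

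In NS and both treated groups 1 sample was highest for at least 20 of 22 mitosis members. NS replicate 2 was the highest NS sample for 29 of 31 members, drug-loaded MNs replicate 3 the highest of its group for 29 of 31, and 5-Fu injection replicate 2 the highest of its group for 20 of 22 mitosis members. Drug-loaded MNs replicate 2 was lowest for 21 of 22 mitosis members and 5-Fu injection replicate 1 for 18 of 22. In HS the classes went apart, since replicate 1 was highest for 7 of 8 replication members and lowest for 17 of 22 mitosis members, whose highest sample was replicate 3 for 12 and replicate 2 for 9. After 5-Fu injection the highest sample of the 8 replication members was replicate 1 for 3, replicate 2 for 4 and replicate 3 for 1. The median SD of the mitosis members within a group was 0.17 log2 units in HS, 0.28 in NS, 0.45 after drug-loaded MNs and 0.43 upon 5-Fu injection.

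**Figure D4:**
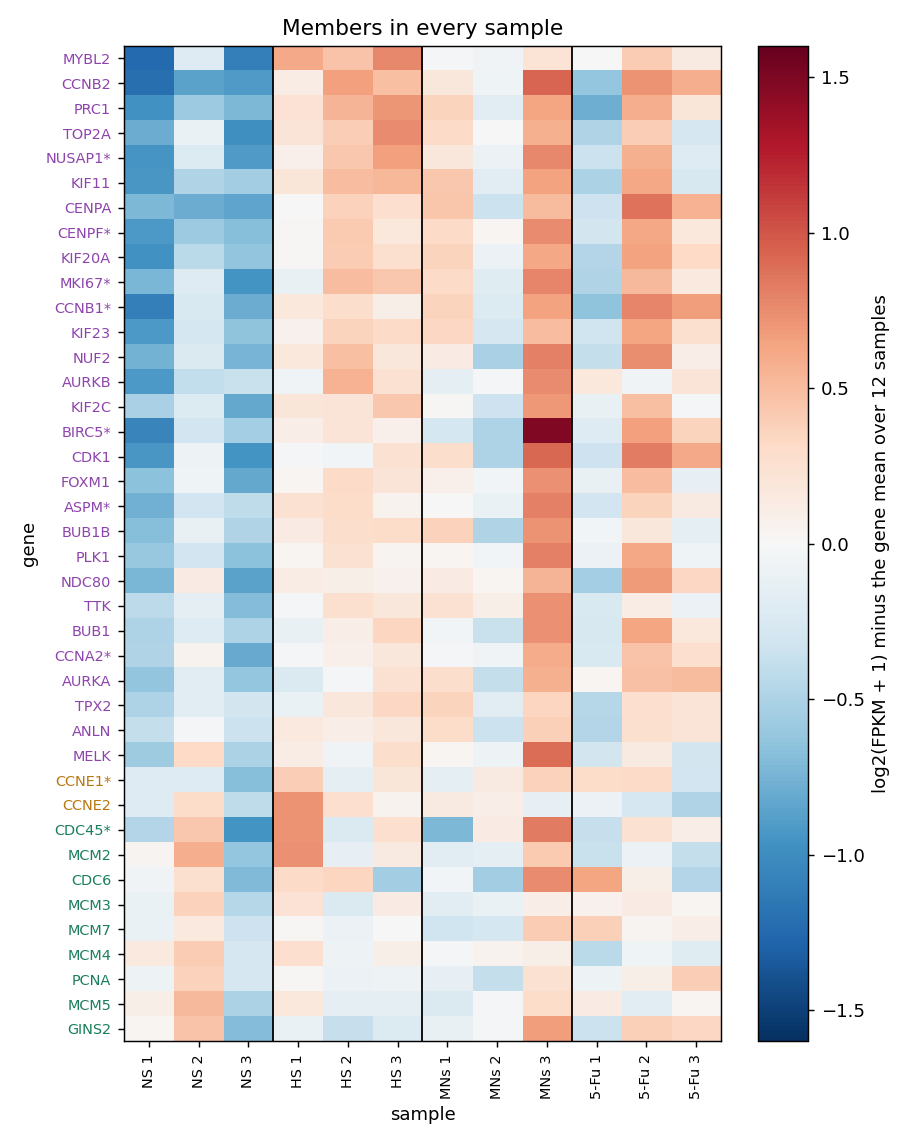
Members tested (rows, coloured by class as mitosis purple, G1/S regulator brown and replication green, asterisks for genes found by description) in each sample (columns), as log2(FPKM + 1) minus the mean of the gene over 12 samples. The mitosis rows are mostly blue in NS, least so in replicate 2, where MELK, NDC80 and CCNA2 lie above their mean. Within the treated groups most mitosis rows are lowest in replicate 2 of drug-loaded MNs and in replicate 1 of 5-Fu injection.

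Members of a class varied together across the samples. The median correlation over the 12 samples was 0.83 for 231 pairs of mitosis members, of which 0 were negative, 0.58 for 28 pairs of replication members and 0.28 for 176 pairs across the classes. Taken on deviations from the group means, these medians were 0.78, 0.69 and 0.44. KIF23, a cytokinesis motor, with 0.97, and KIF20A, with 0.97, followed the median of the other mitosis members most closely, and AURKB with 0.73 least. MELK was the mitosis gene nearest to the replication members, with 0.69. These are descriptions over samples that share their groups, libraries and scaling.

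The gap between the classes separated HS from NS. The median centred log2 level of the mitosis members minus that of the replication members was -0.72, -0.59 and -0.19 in NS and -0.10, 0.40 and 0.31 in HS. It was 0.41, -0.05 and 0.32 after drug-loaded MNs and -0.32, 0.47 and 0.15 after 5-Fu injection. The HS and drug-loaded MNs samples lay above all NS samples, and 5-Fu injection replicate 1 lay within the NS range. That sample also had a cartilage marker sum of 5003 FPKM, against 407 and 741 in replicates 2 and 3, a T cell sum of 39.9 against 6.80 and 7.76, and a B and germinal centre B cell sum of 68.4 against 26.9 and 32.5. The T cell sum held only CD2 and CD5, the 2 genes found of 8 listed, and BCL6 gave 35.9 FPKM of the B cell sum. Cartilage sums of 4248 and 4287 FPKM occurred in HS replicate 3 and drug-loaded MNs replicate 3. Their mitosis levels were 0.28 and 0.67, against -0.32 in 5-Fu injection replicate 1. The B cell sum of HS replicate 1 was 97.7. The part of these markers in the class levels of 5-Fu injection replicate 1 was not tested. The class levels had a correlation of 0.43 over the 12 samples.

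**Figure D5:**
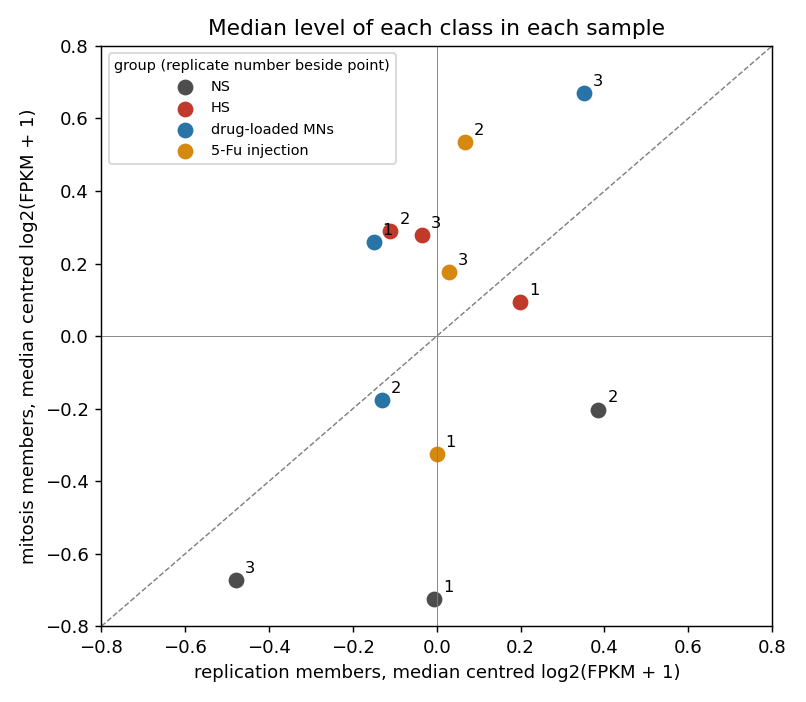
Median over the replication members (horizontal axis) and over the mitosis members (vertical axis) of log2(FPKM + 1), each gene centred on its mean over 12 samples, for every sample; numbers are replicates and the dashed line marks equal values. NS spreads along the replication axis from -0.48 to 0.39 but stays between -0.73 and -0.20 on the mitosis axis.

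Other genes of the pathway were counted in the same fit. Of 60 further mitosis genes listed, 42 were tested, 39 had a positive log2 fold change in HS against NS with a median of 0.50, and 2 rose, beside 3.53% of all genes tested. PIMREG, a mitotic regulator, was at 0.103, 0.308 and 1.14 FPKM in NS and at 5.45, 5.53 and 6.54 in HS (log2 fold change 2.23, limma adjusted p = 0.00550). It was also called in drug-loaded MNs against NS (1.88, limma adjusted p = 0.0419), a comparison in which 0 genes were called without NS replicate 2. RACGAP1, which directs the cleavage furrow, was at 3.22, 4.78 and 2.62 FPKM in NS and at 10.6, 8.14 and 8.52 in HS (1.17, limma adjusted p = 0.0389), and missed the threshold without any single NS or HS sample other than NS replicate 2 (limma adjusted p of 0.0828 to 0.128) and without drug-loaded MNs replicate 1 (limma adjusted p = 0.0546). Neither gene overlapped between NS and HS. Of 38 further replication genes listed, 25 were tested, 18 were positive with a median of 0.16 and 0 were called. RRM2, the ribonucleotide reductase subunit that supplies DNA precursors, had a log2 fold change of 0.57 in HS against NS (limma adjusted p = 0.370) and was not called in any comparison.

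Genes of G1 and the brakes of the cycle gave no calls. The 6 G1 cyclins and CDKs tested had a median of -0.12 in HS against NS, with CDK4, a kinase of G1, at 0.48 (limma adjusted p = 0.126). Of 3 CDK inhibitors tested, CDKN2C, which blocks CDK4 and CDK6, had a limma adjusted p of 0.0430 with a log2 fold change of 0.83, short of the fold required. The 11 pocket proteins and repressors tested gave 0 calls. In the comparisons of the treated groups with HS and with each other, these 5 lists gave 0 calls as well, beside 0.00753% of all genes called higher and 0 lower with drug-loaded MNs against HS, 0.512% and 1.78% with 5-Fu injection against HS, and 0 between the treatments. LIN37, a subunit of the DREAM repressor complex, was at 22.7, 18.2 and 19.1 FPKM in HS and at 35.4, 30.3 and 36.5 after 5-Fu injection. Its groups did not overlap, and its log2 fold change of 0.74 was short of the fold required (limma adjusted p = 0.0291). CDKN1A, CCND1 and TYMS are not analysed here.

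Markers of other cells moved with the groups. The fibroblast markers had a correlation of 0.69 with the mitosis class level over the 12 samples, and of 0.28 on deviations from the group means. Against HS, 4 of 8 fibroblast markers were called lower after 5-Fu injection (COL1A1, COL3A1, LUM and FBLN1), beside 1.78% of all genes tested. After drug-loaded MNs 0 of 8 were called lower, as were 0 of all genes tested. The 8 markers then had a median log2 fold change of -0.85, and 0 were positive. In both comparisons 0 mitosis members were called. Without HS replicate 2, without HS replicate 3 or with only the compared groups in the fit, 0 genes were called in 5-Fu injection against HS in limma. The 5-Fu injection samples 1, 2 and 3 summed to 5399, 27108 and 6908 FPKM of fibroblast markers and to 94.2, 195 and 154 FPKM of mitosis members. The mitosis sum of replicate 3, in which the abundant members weigh most, lay in the HS range, and its members went both ways. CENPA and CDK1, at 26.2 and 23.6 FPKM, were above every HS sample, as were AURKA, NDC80 and ANLN. MYBL2, TOP2A, KIF11 and FOXM1, at 4.08, 3.51, 2.59 and 2.74 FPKM, were below every HS sample. So were PRC1, PLK1, KIF2C, NUF2, BUB1B, TTK and MELK. The remaining mitosis members found by symbol lay within the HS range. Basal keratinocyte markers, whose cells also divide, had a correlation of -0.06 with the mitosis class level, and 0.36 on deviations from the group means.

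The hair follicle list had 6 genes found, summing to 29.1 to 369 FPKM in NS and 71.0 to 1017 in HS, and LEF1, a transcription factor of the hair matrix that is also used elsewhere, was called higher. The endothelial sums were 276 to 346 FPKM in NS and 337 to 384 in HS with 0 calls, and the myeloid sums 374 to 1091 and 591 to 636 with 0 calls. Endothelial markers had a correlation of 0.54 with the mitosis class level, and of 0.37 on deviations from the group means. Of the 8 B and germinal centre B cell genes found, 3 were tested, with a median log2 fold change of -0.38 in HS against NS. CR2 was the 1 of these 3 above 0 and was called higher, at 79.6, 6.11 and 6.31 FPKM in HS. RGS13 was at 0 in 11 of 12 samples and MS4A1 at 0 in 4. Skeletal muscle markers, low in all samples with sums of 5.63 to 74.5 FPKM, had a correlation of -0.68 with the mitosis and of -0.67 with the replication class level. On deviations from the group means these correlations were -0.41 and -0.77. The part of these cell types in the differences of the mitosis genes was not tested.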

How the data were processed

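The authors deposited 1 table of FPKM values for 12 samples, 3 rabbits per group. Per the study's methods, poly-A RNA was sequenced after removal of adapter and low-quality reads; aligner, counter and genome build are not given in the sources used here. The deposited gene length, in bases, showed that 100% of values were whole reads times 1 step per sample (tolerance 0.02), which gave the reads. Groups came from the sample titles. Members, pathway and marker lists were chosen with earlier results of these data known. All members could be named. Values in every sample were given for called members and MKI67, TOP2A, CDK1, CCNB1, MCM2 and PCNA; the others were given by counts and by the 2 highest and 2 lowest per class. CDKN2C, LIN37 and the marker genes were named after their values were seen. A symbol on several rows took the row with the highest mean.

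Log2(FPKM + 1) of the 13287 genes that averaged 1 FPKM or more was fitted in R 4.3.3 with limma 3.58.1 (4 group means, empirical Bayes with trend) for 6 comparisons, adjusted by Benjamini-Hochberg over all genes. The procedure was tested on simulated data. The alternatives were other pseudocounts, filters, scalings and fits, voom on the reads and leaving out each sample. P-values measure the spread between rabbits. Promoter and protein sequences were not used here. Figures were drawn with matplotlib 3.10.9.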

Additional observations from a re-analysis of the deposited data

How the results depend on the processing

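The count of members called higher in HS against NS was 4, and moved to 1 without a filter on low values, 2 at a mean FPKM of at least 5 and 2 after rescaling to the total of reads. Leaving out 1 sample at a time gave 1 to 5. In drug-loaded MNs against NS the same gave 0 to 1 (CCNB2, without 5-Fu injection replicate 1). The mitosis median in HS against NS moved from 0.76 to 1.01 with a pseudocount of 0.1, 0.47 after rescaling and 1.05 with voom, and the replication median to -0.30 after rescaling. The replication median of 5-Fu injection against HS became 0.17 after rescaling and ran from 0.0086 to 0.17 with 1 sample left out, and that of drug-loaded MNs against 5-Fu injection from -0.21 to 0.10. With voom, which called 508 genes higher and 172 lower in HS against NS, CCNB2 missed the threshold (limma adjusted p = 0.0527) and 3 members were called. The same-numbered samples are different rabbits and their deviations had correlations of -0.27 to 0.44, so they were not treated as paired. With a replicate block 3 members were called in HS against NS, and TOP2A was not (limma adjusted p = 0.0683). Of the other results, 214 of those under other settings and 278 of those with 1 sample left out moved by less than 1 SD or 1.5 times, and 0 values of called genes changed sign. The fewest reads per sample were those of CDC45 (2 to 52), BIRC5 (6 to 63), CCNE2 (8 to 35) and CDC6 (11 to 62).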
